A study of Capra hircus with 4 samples.

Results

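PRSS2, CTRC, CELA1 and CPB1, which encode protein-digesting enzymes of the pancreas, and SPINK1 and SERPINI2, which encode protease inhibitors, are described here across the cells of the goat pancreas. They are 6 of the 27137 genes listed in the data and were taken by their symbols. Single-cell RNA sequencing was made on dissociated pancreas of 4 female Liuyang black goats, 2 of them 6 months old, after rumination begins, and 2 of them 10 days old, before it. The animals of each age were twins, none was treated, and only 1 portion of each pancreas was dissociated. The counts are numbers of unique molecular identifiers (UMIs), each of which marks 1 captured RNA molecule. Every cell carries a library number from 1 to 4 that no label ties to an age or an animal. The ages were therefore not compared. Classes of cells were compared within each library, with the spread over libraries and no p-value.

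Acinar cells store digestive proteases as inactive precursors in zymogen granules and release them into the ducts, and enteropeptidase of the gut wall then activates trypsinogen, whose product activates the others. Trypsin, chymotrypsin and elastase cut inside protein chains, whereas the carboxypeptidases remove residues from their ends. Trypsin that forms too early, inside the pancreas, can damage it, and acinar cells make inhibitors beside the enzymes.

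In all, 13216 cells were kept, with 2813, 3324, 3996 and 3083 in libraries 1 to 4 and median depths of 6174, 8935, 7960.5 and 8185 UMIs per cell. Clusters built without the 6 genes gave 2588 acinar-like, 434 ductal-like, 2937 endocrine-like, 4856 stellate-like, 344 endothelial-like, 135 mesothelial-like and 1207 immune-like cells, and 715 cells stayed unnamed. Acinar-like cells numbered 375, 1294, 848 and 71 in libraries 1 to 4, and each acinar-like cluster carried 10 to 12 of the 13 matched acinar markers. They lay mainly in cluster 5 in libraries 1 and 4 and in clusters 20, 21, 22, 26 and 29 in libraries 2 and 3. Cells of different libraries shared 17 barcode sequences, which touched 34 cells. Barcodes with 10 to 100 UMIs, too few for a cell, show the RNA that was free in each suspension, and the 6 genes made up 7.50%, 2.57%, 2.47% and 0.582% of their UMIs in libraries 1 to 4.

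The trypsinogen gene PRSS2 was close to the same level in the acinar-like cells of every library. It had 42840, 50421, 41554 and 35101 counts per 1000000 UMIs (CPM) in libraries 1 to 4, with exact Poisson 95% intervals of 42639 to 43042, 50343 to 50500, 41460 to 41648 and 34750 to 35455. These intervals cover counting error only, as do all intervals below. The highest library stood 1.44 times above the lowest. Every acinar-like cell in all 4 libraries held a PRSS2 UMI once cells were thinned to 3000 UMIs each.

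CTRC encodes chymotrypsin C, which in humans also degrades trypsinogen and so limits its activation. It had 38537, 3550, 8216 and 23717 CPM in the acinar-like cells of libraries 1 to 4. Library 1 was highest, library 4 next, and library 2 lowest, at a span of 10.9 times. CTRC was still seen in 100%, 95.4%, 99.9% and 100% of acinar-like cells at 3000 UMIs.

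CELA1 encodes an elastase that the adult human pancreas does not make but that other mammals do. Its level spread the most of the 6 genes, with 49921, 883, 1291 and 37276 CPM in libraries 1 to 4, a span of 56.5 times. Libraries 1 and 4 were high and libraries 2 and 3 low. The Poisson intervals of no pair of libraries overlapped, which was also so for PRSS2, CTRC and CPB1. At 3000 UMIs, CELA1 was found in every acinar-like cell of libraries 1 and 4, in 82.1% of those in library 2 (exact Clopper-Pearson 95% interval 79.9% to 84.1%) and in 86.0% of those in library 3 (83.4% to 88.2%).

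CPB1 encodes carboxypeptidase B, which removes basic residues from the end of a peptide. It stood at 22296, 2100, 4149 and 12447 CPM, a span of 10.6 times with the libraries in the same order as for CTRC. It was detected in 93.1% to 100% of acinar-like cells at 3000 UMIs.

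The inhibitors varied less than CTRC, CELA1 and CPB1. SPINK1, the pancreatic secretory trypsin inhibitor, had 2778, 1368, 2954 and 2665 CPM, with library 2 alone low and a span of 2.16 times. SERPINI2, a serpin of the pancreas whose loss in mice is followed by loss of acinar cells, had 696, 773, 1033 and 701 CPM, a span of 1.48 times. SPINK1 was present in 96.0% to 99.2% and SERPINI2 in 84.0% to 91.0% of acinar-like cells at 3000 UMIs.

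**Figure D1:**
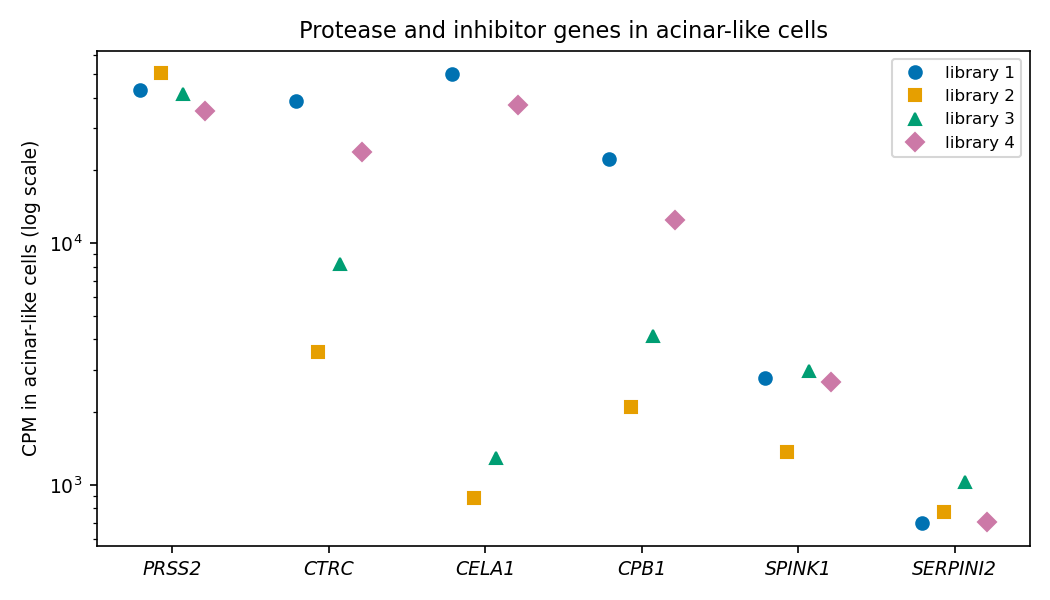
Level of each gene in acinar-like cells, in CPM on a log axis, with 1 point per library. The points for PRSS2 and SERPINI2 lie close together, whereas those for CELA1 run between 883 and 49921 CPM. Counting intervals are not drawn.

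The make-up of the group differed between libraries. Of all UMIs in acinar-like cells, the 6 genes together held 15.7%, 5.91%, 5.92% and 11.2% in libraries 1 to 4. PRSS2 accounted for 27.3%, 85.3%, 70.2% and 31.4% of the UMIs of the group, and CELA1 for 31.8%, 1.49%, 2.18% and 33.3%. CTRC made up 24.5%, 6.01%, 13.9% and 21.2%, and CPB1 14.2%, 3.55%, 7.01% and 11.1%. Shares of UMIs were not scaled for transcript length, so they are set against each other between libraries and not between genes. For each SPINK1 UMI there were 15.4, 36.9, 14.1 and 13.2 PRSS2 UMIs, so library 2 carried the least inhibitor transcript per trypsinogen transcript.

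The make-up was also taken by cluster. In library 2 the CELA1 share of the group was 1.35% to 1.68% over 4 clusters, and in library 3 it was 1.71% to 2.29% over 4 clusters. Cluster 26 held cells of both libraries, with a CELA1 share of 1.49% in library 2 and 1.92% in library 3. CTRC differed within a library, at 6.42% in cluster 26 of library 3, close to the 6.01% of all acinar-like cells of library 2, against 11.5% to 14.6% in the other 3 clusters there, and at 8.25% in cluster 21 of library 2 against 5.75% to 6.26% in the others. The 52 library 3 cells of cluster 26 had a median of 9301.5 UMIs, against 16458.5 to 19063.5 in the other 3 clusters. Their SPINK1 share was 6.62%, against 2.32% in cluster 26 of library 2. In library 4, where 65 of the 71 acinar-like cells lay in cluster 5, CELA1 was 36.0% of the group in that cluster.

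**Figure D2:**
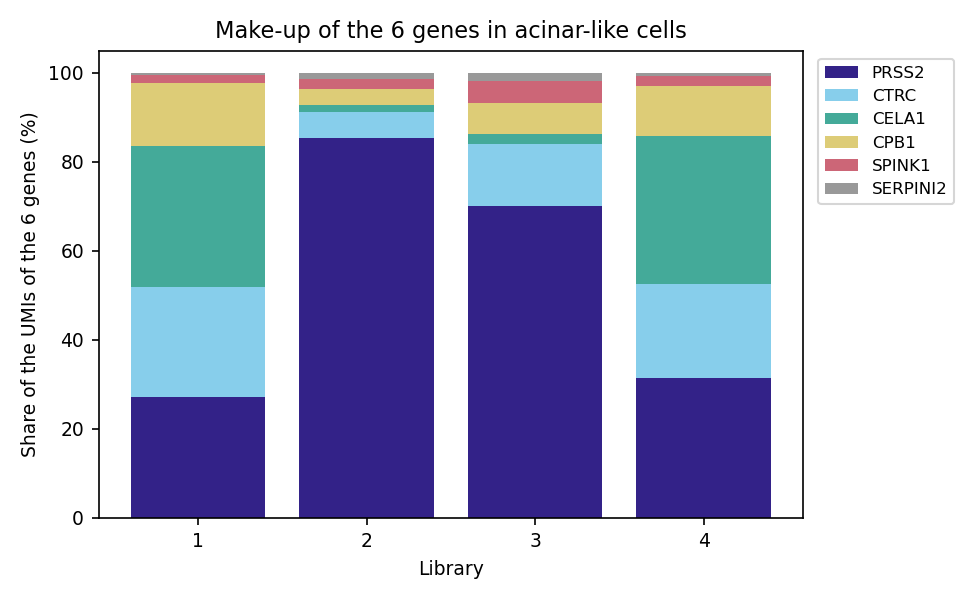
Make-up of the UMIs of the 6 genes in acinar-like cells, as stacked shares in percent with 1 bar per library. PRSS2 takes 85.3% and 70.2% in libraries 2 and 3, and 27.3% and 31.4% in libraries 1 and 4, where CELA1 takes 31.8% and 33.3%.

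The genes were also set against each other from cell to cell. Spearman correlations over acinar-like cells thinned to 3000 UMIs (375, 1294, 848 and 71 cells) are given as descriptions, since cells of a library share its depth and source. PRSS2 and CTRC were at 0.22, 0.20, 0.28 and 0.30 in libraries 1 to 4. CTRC and CELA1 were at 0.08, 0.16, 0.30 and 0.35, and CTRC and CPB1 at -0.06, 0.21, 0.12 and 0.62. A thinned cell held a mean of 2.35 to 3.12 SERPINI2 UMIs, too few for a weak correlation to be read. The same limit holds for CELA1 in libraries 2 and 3, at means of 2.46 and 3.49 UMIs, against 138.8 and 109.8 in libraries 1 and 4. PRSS2 and SERPINI2 were at -0.04, 0.02, 0.04 and 0.00. CPB1 and SPINK1 were below 0 in each library, at -0.36, -0.06, -0.24 and -0.18. CPB1 and SERPINI2 ran from 0.07 in library 3 to 0.45 in library 1. PRSS2 and SPINK1, the enzyme and its inhibitor, had no common sign, at 0.03, 0.15, 0.40 and -0.25.

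Set against all other cells, the acinar-like cells were the main place of all 6 genes. The log2 ratio of CPM + 1 was taken within each library, and a call needed a ratio of at least 1 (higher) or at most -1 (lower) throughout the libraries that held 20 or more cells of each class. The class with more of the gene also needed 20 counts or more in each of these libraries. All 6 genes were called higher in acinar-like cells, beside 0.565% of the 12916 genes measured. The median log2 ratios over the 4 libraries were 5.98 for PRSS2, 6.10 for CTRC, 5.37 for CELA1, 4.61 for CPB1, 4.76 for SPINK1 and 5.30 for SERPINI2. Leaving out 1 library moved the median to between 4.65 and 6.10 for CELA1 and between 3.87 and 5.64 for SPINK1, the lower values without library 1 or 4 and the higher without library 2 or 3. CPB1 lay between 4.03 and 5.18 in the same way. Acinar-like cells held 93.0%, 98.3%, 97.3% and 87.9% of the PRSS2 UMIs found in cells of libraries 1 to 4. For CPB1 the shares were 86.5%, 93.4%, 91.8% and 57.5%. In library 4 a further 26.6% of the CPB1 UMIs lay in endocrine-like cells and 11.7% in unnamed cells. These shares depend on the number of cells in a class. Acinar-like cells were 13.3%, 38.9%, 21.2% and 2.30% of the cells of libraries 1 to 4, and endocrine-like cells 21.2% of library 4.

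Genes that belong with the 6 were counted by lists. All 5 measured genes for other digestive enzymes were higher in acinar-like than in all other cells, namely the lipase-related PNLIPRP2 (median log2 ratio 5.36), the carboxyl ester lipase CEL (5.71), colipase CLPS (5.79), the phospholipase PLA2G1B (5.61) and the nuclease DNASE1 (5.00). The 3 measured zymogen granule genes were higher too, ZG16 at 5.68, SYCN at 5.78 and GP2 at 5.73. Of the 5 measured acinar transcription factors 4 were higher, PTF1A (3.82), RBPJL (4.92), BHLHA15 (4.06) and GATA4 (2.41). Most genes of these 3 lists also served to name the acinar-like clusters or entered the clustering, so their direction is no finding. None of the 12 other protease inhibitors measured was higher. Lower were 7, SERPINE2 (-3.88), SERPINF1 (-5.26), SERPING1 (-5.33), PI15 (-4.51), WFDC2 (-2.11), CST6 (-3.04) and TIMP1 (-5.97). With 53% of all genes measured also lower, this count is near the background. Of the 5 genes measured for trypsinogen activation and trypsin sensing, 3 were lower and 0 higher, again near that share. Among the 3 was the lysosomal protease gene CTSB (-3.55), whose product can activate trypsinogen. The median of all genes was -1.67 in this comparison, and with each library centred on its median 4 of the inhibitors and 1 of the activation genes were lower.

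Other members of the protease families could seldom be followed by symbol. Of 11 further serine protease genes of pancreatic juice 1 was matched, the enteropeptidase gene TMPRSS15, which had too few counts to be measured. Many goat genes carry only a LOC number. In the RefSeq order of the protein-coding genes of assembly ARS1.2, PRSS2 lies between LOC102180106, which had 0 acinar-like counts, and LOC102179184, which had 22079, 965, 7529 and 16290 CPM in acinar-like cells of libraries 1 to 4. In the same order CTRC lies beside LOC102174414, at 35310, 441, 1561 and 11825 CPM. Like CTRC and CELA1, both measured neighbours were highest in library 1 and lowest in library 2. Whether near-identical copies share reads with PRSS2, CTRC or CELA1 was not tested.

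Ductal cells line the tubes that carry the enzymes away and are not known as a source of them. In the libraries with at least 20 ductal-like cells (58, 145 and 220 in libraries 1 to 3), 56 of the 58 lay in cluster 11 in library 1, and 133 of the 145 and 206 of the 220 lay in cluster 18 in libraries 2 and 3. PRSS2 had 42840, 50421 and 41554 CPM in acinar-like cells of libraries 1 to 3, against 1797, 6765 and 3625 CPM in ductal-like cells. The ductal-like PRSS2 was uneven: the 10% of cells with the most held 88.7%, 89.3% and 89.1% of it, and the median ductal-like cell had 207, 641 and 473 CPM. Of the 6 genes 5 were called higher in acinar-like cells, beside 1.98% of the 4248 genes measured. Their median log2 ratios were 3.52 for PRSS2, 3.17 for CTRC, 2.76 for CELA1, 3.05 for CPB1 and 3.07 for SERPINI2. With a minimum of 1000 UMIs per cell the medians were 4.94, 5.11, 5.23, 4.38 and 4.58 in that order, and with the 5% of cells with the highest doublet scores removed 4.90, 4.74, 4.03, 4.14 and 4.46. Without library 2, CELA1 was at 3.76, CTRC at 3.95 and SERPINI2 at 3.69, and without library 3 CELA1 was at 3.54. With each library clustered on its own PRSS2 and SERPINI2 alone were called, and the lowest ratios of CTRC, CELA1 and CPB1 were 0.79, 0.99 and 0.82.

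SPINK1 was the exception. It had 2778, 1368 and 2954 CPM in acinar-like cells of libraries 1 to 3, against 834, 1593 and 2052 CPM in ductal-like cells, with log2 ratios of 1.74, -0.22 and 0.53. The acinar-like cells were thus higher in libraries 1 and 3 and lower in library 2, and no call was made. The median of all genes in this comparison was -1.78, and with each library centred on its median SPINK1 was called higher in acinar-like cells as well. The 10% of ductal-like cells with the most SPINK1 held 53.8%, 26.4% and 33.0% of it, and the median ductal-like cell had 359, 1634 and 1768 CPM.

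Other inhibitors were counted in the same comparison. Of 6 measured, 5 had lower levels in the acinar-like cells and 0 were higher. With 68.5% of all genes measured also lower, this count is near the background. They were SPINT1 (-3.28) and SPINT2 (-1.93), membrane inhibitors of epithelial serine proteases, SERPING1 (-3.37), the inhibitor of complement C1, WFDC2 (-4.82) and the metalloprotease inhibitor TIMP1 (-4.86). After centring 3 of them, SPINT1, WFDC2 and TIMP1, stayed lower. CTSB (-1.92) and LAMP2 (-1.53), a lysosomal membrane protein gene, were lower before centring and neither after it. The 5 digestive enzyme genes (2.56 to 3.37), the 3 granule genes (2.68 to 3.22) and 3 of 5 transcription factor genes, PTF1A (2.22), RBPJL (2.27) and BHLHA15 (3.26), were higher, beside 1.98% of all genes measured. Most genes of these 3 lists named the acinar-like clusters or entered the clustering, so here too their direction is no finding.

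**Figure D3:**
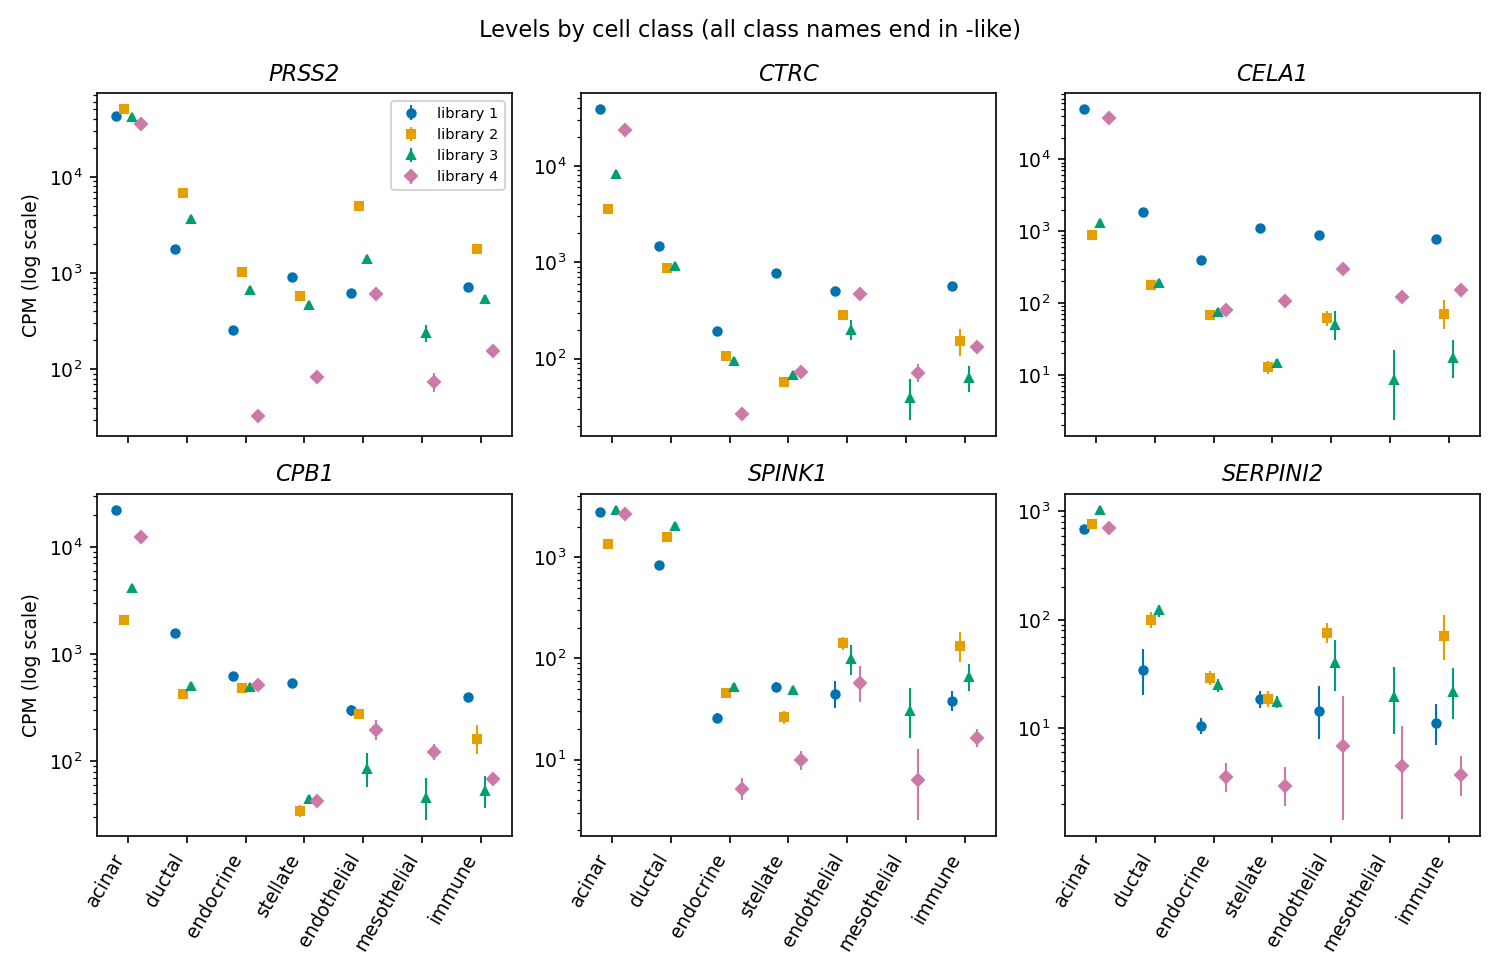
Level of each gene by cell class, in CPM on log axes that differ between panels, with 1 point per library and exact Poisson 95% intervals where they exceed the point. Classes with fewer than 20 cells in a library are not drawn. Acinar-like cells lead for 5 genes in every library, and SPINK1 in library 2 stands at 1368 CPM in acinar-like and 1593 CPM in ductal-like cells.

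Ductal-like cells were next set against stellate-like cells, fibroblast-type cells that should make none of the 6. The part of free RNA and of doublets in the values of either class was not tested. SPINK1 had 834, 1593 and 2052 CPM in ductal-like cells of libraries 1 to 3, against 52.5, 26.2 and 48.8 CPM in stellate-like cells, with log2 ratios of 3.96, 5.87 and 5.36. At 3000 UMIs the shares of cells with SPINK1 were 67.2%, 94.5% and 96.4% in ductal-like cells, against 9.41%, 6.96% and 13.4% in stellate-like cells. Median depths were 6254, 7827 and 6548 UMIs in ductal-like cells, against 4887, 6792 and 6714.5 UMIs in stellate-like cells. Of the 5 genes measured here SPINK1 and CPB1 were called higher in ductal-like cells, beside 10.9% of the 7043 genes measured. CPB1 had a median log2 ratio of 3.47, but 82.9% to 93.7% of its ductal-like UMIs lay in the 10% of cells with the most, and with the mean of per-cell CPM its lowest ratio was 0.80 and the call was lost. PRSS2 (2.94), CTRC (3.72) and CELA1 (3.62) missed the call through library 1, where their ratios were 0.99, 0.91 and 0.73, and SERPINI2 had too few counts there. Without library 1 all 6 genes were called higher. With a minimum of 1000 UMIs per cell the medians were 1.28 for CPB1, 1.38 for PRSS2, 1.05 for CTRC, 0.72 for CELA1 and 4.72 for SPINK1. With the 5% of cells with the highest doublet scores removed they were 2.20 for CPB1, 1.18 for PRSS2, 2.12 for CTRC, 2.34 for CELA1 and 5.35 for SPINK1. Without library 2 they were 2.51 for CPB1, 1.97 for PRSS2, 2.32 for CTRC, 2.17 for CELA1 and 4.66 for SPINK1, and without library 3 those of these 4 enzymes lay between 2.21 and 2.57. SPINK1 was called under each alternative run, with a lowest library ratio of 3.76.

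The ratio of a gene to PRSS2 shows the difference between SPINK1 and the enzymes. Per 1000 PRSS2 UMIs, SPINK1 had 464, 235 and 566 UMIs in ductal-like cells of libraries 1 to 3. Stellate-like cells had 58.2, 45.1 and 103.5 UMIs and acinar-like cells 64.8, 27.1 and 71.1 UMIs. The barcodes with 10 to 100 UMIs had 67.5, 40.5 and 84.5 UMIs. The ductal-like ratio was thus above the other 3 in each library. CPB1 per 1000 PRSS2 UMIs was 875, 62.2 and 138 in ductal-like cells, against 442, 49.3 and 91.8 in those barcodes, a smaller gap. In barcodes with 5 to 50 UMIs the CPB1 ratio was 479, 82.7 and 93.5, so in library 2 the ductal-like ratio lay below it. The SPINK1 ratio was 71.7, 40.7 and 53.7 there, below the ductal-like ratio in each library. Among ductal-like cells with no PRSS2 UMI in 3000, SPINK1 was found in 17 of 29, 20 of 21 and 49 of 51 cells of libraries 1 to 3, or 58.6%, 95.2% and 96.1%. In stellate-like cells chosen in the same way it was found in 4.71%, 3.75% and 10.5%.

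In the same comparison 2 of 11 measured inhibitors, SPINT1 (5.80) and SPINT2 (1.84), were higher in ductal-like cells, beside 10.9% of all genes. Lower were 5 of the 11, SERPINE2 (-2.14), SERPINF1 (-5.71), SERPING1 (-2.13), PI15 (-4.63) and TIMP1 (-1.94), beside 13.2% of all genes. PNLIPRP2 (2.82), CEL (3.08) and PLA2G1B (2.50) of the digestive enzymes, and ZG16 (2.15) and GP2 (3.30) of the granule genes, were higher as well. These enzyme and granule genes are abundant in acinar-like RNA, whose part in the ductal-like values was not tested.

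CPB1 stood apart from the other enzymes in the endocrine-like cells, the hormone-making cells of the islets. It had 623, 484, 497 and 516 CPM in libraries 1 to 4, a span of 1.29 times, although its acinar-like level spanned 10.6 times. Stellate-like cells had 533, 34.0, 44.3 and 42.2 CPM. The log2 ratios were 0.22, 3.79, 3.46 and 3.58, so library 1 did not reach the threshold and no call was made. With 12.9% of the 11731 measured genes called higher and 14.3% lower in endocrine-like cells, 0 of the 6 were called, and CPB1 was called higher without library 1, with a minimum of 1000 UMIs per cell and with each library clustered on its own. The other 5 genes had median log2 ratios between -0.46 and 0.94 with both signs among the libraries. Leaving out 1 library moved these medians to between -1.39 for CTRC and 2.27 for CELA1 and turned the sign for PRSS2, CTRC, CELA1 and SPINK1. With a minimum of 1000 UMIs the CELA1 median was 2.13.

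Library 1 was also the one with the most free CPB1, at 9471 CPM in barcodes with 10 to 100 UMIs, against 1021, 1627 and 690 CPM in libraries 2 to 4. The part of free RNA in the class values of library 1 was not tested. The median endocrine-like cell of library 1 had 504 CPM of CPB1, against 127 CPM in the median stellate-like cell, where the 10% of cells with the most held 79.5% of the CPB1 UMIs. At 3000 UMIs, CPB1 was found in 75.6%, 68.1%, 70.6% and 75.7% of endocrine-like cells, against 38.8%, 8.62%, 12.0% and 5.95% of stellate-like cells. The median depths were 14947, 8429, 8334.5 and 17062 UMIs in endocrine-like cells and 4887, 6792, 6714.5 and 8060 UMIs in stellate-like cells, and unthinned shares were 97.5%, 90.9%, 92.2% and 97.5%, against 52.6%, 16.3%, 25.8% and 9.86%.

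Relative to PRSS2, CPB1 was higher in endocrine-like cells than in the free RNA. The part of free RNA and of doublets in the endocrine-like values was not tested. Per 1000 PRSS2 UMIs there were 2428, 471, 752 and 15665 CPB1 UMIs in endocrine-like cells of libraries 1 to 4. The value of library 4 rests on only 400 PRSS2 UMIs. Stellate-like cells had 591, 58.6, 94.0 and 504 CPB1 UMIs, and the barcodes with 10 to 100 UMIs had 442, 49.3, 91.8 and 439. CTRC showed no such excess, with 754, 104, 144 and 818 UMIs per 1000 PRSS2 UMIs in endocrine-like cells, against 830, 99.5, 151 and 854 in those barcodes. CELA1 was above those barcodes in each library, with smaller gaps, at 1556, 67.1, 112 and 2442.5 against 1139, 25.7, 39.1 and 1260. SERPINI2 was above them too, at 41.1, 28.4, 37.6 and 107.5 against 19.4, 22.9, 25.6 and 32.1. Among endocrine-like cells with no PRSS2 UMI in 3000, CPB1 was found in 72.8%, 68.6%, 67.4% and 75.0%, against 29.5%, 7.92%, 10.3% and 4.91% of such stellate-like cells.

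**Figure D4:**
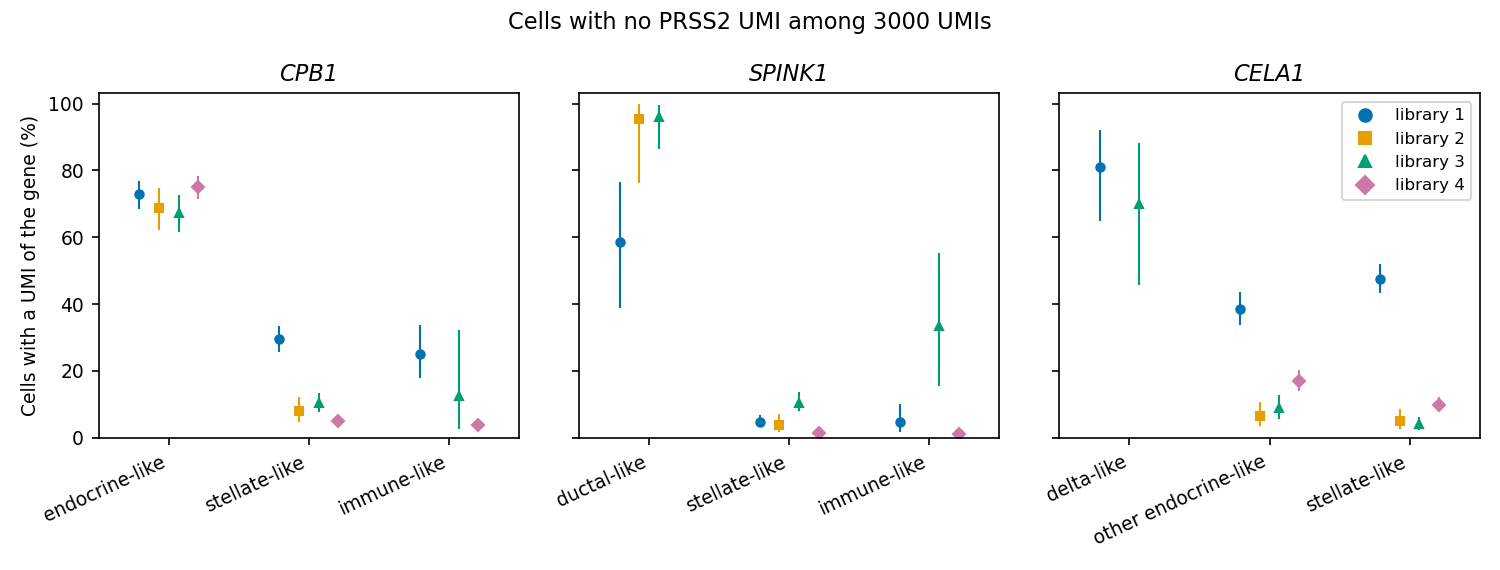
Share of cells with a UMI of CPB1, SPINK1 or CELA1, in percent, among cells that held no PRSS2 UMI when thinned to 3000 UMIs, with 1 point per library and exact Clopper-Pearson 95% intervals; groups with fewer than 20 such cells are not drawn. CPB1 in endocrine-like cells lies at 67.4% to 75.0%, and SPINK1 in ductal-like cells at 58.6% to 96.1%, above stellate-like cells in each library.

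Within the endocrine-like cells CPB1 was unevenly spread. Its share of cells at 3000 UMIs was 88.0%, 92.6% and 92.7% in the delta-like cluster 14 of libraries 1 to 3, which is marked by the somatostatin gene SST. It was 74.5% to 82.8% over 4 libraries in cluster 6, whose leading gene is PPY, for pancreatic polypeptide. The beta-like clusters 3 and 23 lay between 67.1% and 81.3%. The alpha-like cluster 16 had 50.0% and 46.5% in libraries 2 and 3, and the beta-like cluster 17 had 42.5% and 17.4%, the last from 23 cells. That last share has an interval of 4.95% to 38.8%, which takes in the stellate-like share of 12.0% in library 3.

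CELA1 was raised in the delta-like cluster. It had 2277, 865 and 517 CPM in the 75, 27 and 82 delta-like cells of libraries 1 to 3, against 285, 46.5 and 47.6 CPM in the other endocrine-like cells. At 3000 UMIs, 82.7%, 70.4% and 67.1% of delta-like cells held CELA1, whereas no other endocrine-like cluster exceeded 12.9% in libraries 2 and 3. Library 1 is less clear, since 60.2% of its stellate-like cells held CELA1, against 4.57% and 3.89% in libraries 2 and 3. PRSS2 was also higher there, at 1688 CPM in delta-like and 169 CPM in other endocrine-like cells of library 1, against 538 and 1043 CPM in library 2 and 689 and 659 CPM in library 3. CTRC had 1143 and 136 CPM in library 1, 31.6 and 109 CPM in library 2 and 111 and 94.2 CPM in library 3. With the 5% of cells with the highest doublet scores removed, the delta-like CELA1 level of library 1 was 991 CPM, beside 347 CPM in other endocrine-like cells, while libraries 2 and 3 kept 907 and 517 CPM.

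Per 1000 PRSS2 UMIs, delta-like cells had 1349, 1608 and 749 CELA1 UMIs in libraries 1 to 3, against 1681, 44.6 and 72.1 in the other endocrine-like cells and 1139, 25.7 and 39.1 in the barcodes with 10 to 100 UMIs. In libraries 2 and 3 the delta-like ratio was thus above both, and in library 1 it lay between them. In barcodes with 5 to 50 UMIs the ratio was 1098, 80.3 and 94.5 in libraries 1 to 3. The part of free RNA and of doublets in the delta-like values was not tested. Library 4 had 2284 CELA1 UMIs per 1000 PRSS2 UMIs in its other endocrine-like cells, against 1260 in its barcodes. Among delta-like cells with no PRSS2 UMI in 3000, CELA1 was found in 30 of 37 cells of library 1 and 14 of 20 cells of library 3, or 81.1% and 70.0%. Other endocrine-like cells of that kind held it in 38.7% and 8.86% in libraries 1 and 3, and stellate-like cells in 47.6% and 3.98%. Library 4 had 17 delta-like cells, too few for a value here, and under a cell minimum of 1000 UMIs it had 46, at 495 CPM, beside 354 CPM in other endocrine-like cells.

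**Figure D5:**
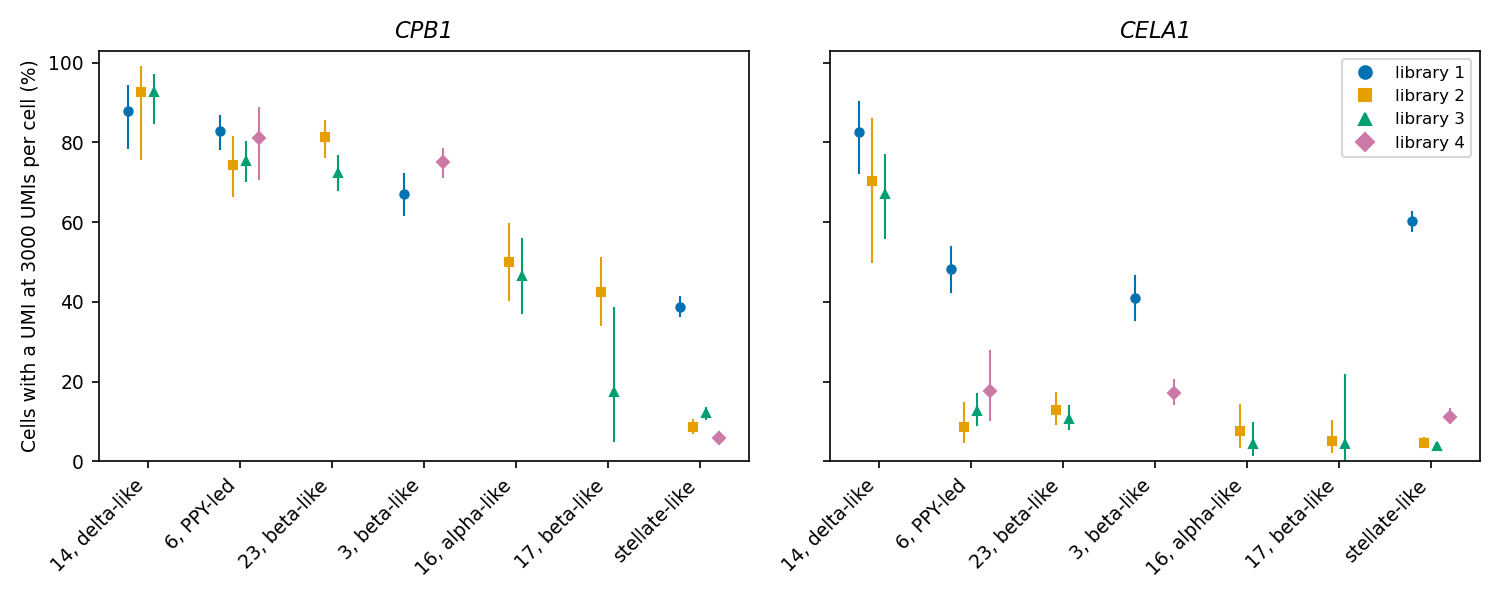
Share of cells with a CPB1 UMI (left) or a CELA1 UMI (right) at 3000 UMIs per cell, in percent, by endocrine-like cluster and in stellate-like cells, with 1 point per library and exact Clopper-Pearson 95% intervals. CPB1 lies high in most endocrine-like clusters, and CELA1 in the delta-like cluster, at 67.1% to 82.7%. In library 1, which gives the 82.7%, CELA1 is also found in 60.2% of stellate-like cells.

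In the same comparison of endocrine-like with stellate-like cells, 2 of 10 measured inhibitors, SPINT1 (3.60) and the cystatin CST6 (3.56), were higher, beside 12.9% of all genes. Lower were 4 of the 10, SERPINF1 (-6.77), SERPING1 (-7.03), PI15 (-5.58) and TIMP1 (-4.36), beside 14.3% of all genes. CASR (3.05), the calcium-sensing receptor gene of the activation and sensing list, was higher too, and 0 of the digestive enzyme and granule genes measured were called.

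The remaining named classes held the 6 genes at low or uneven levels. PRSS2 ran from 613 to 5030 CPM as the class level in endothelial-like cells, from 156 to 1786 CPM in immune-like cells and from 73.2 to 237 CPM in mesothelial-like cells. The endothelial-like value of library 2, 5030 CPM, came mostly from few cells, since 94.5% of its UMIs lay in the 10% of cells with the most and the median cell had 326 CPM. SERPINI2 did not exceed 76.1 CPM in any of these 3 classes. Per 1000 PRSS2 UMIs, mesothelial-like cells had 191 and 1671 CPB1 UMIs in libraries 3 and 4, from 21 and 137 CPB1 UMIs. The barcodes with 10 to 100 UMIs had 91.8 and 439, endothelial-like cells 59.8 and 321, and immune-like cells 97.0 and 439. Among thinned cells of library 4 with no PRSS2 UMI, CPB1 was found in 21.8% of mesothelial-like and 4.91% of stellate-like cells. The unnamed cells had 3241, 32.4, 43.5 and 1173 CPM of CELA1 in libraries 1 to 4. Their CPB1 was at 2900, 151, 303 and 812 CPM, and the values of library 1 rest on 28 cells. In library 4, 390 of the 399 unnamed cells lay in cluster 4, which carried both immune-like and endocrine-like markers. CPB1 was found in 65.4% of the unnamed cells of library 4 at 3000 UMIs. The part of free RNA and of doublets in these values was not tested.

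The genes whose pattern was most like each of the 6 were sought by Pearson correlation of log2(CPM + 1) over 29 class-by-library units of at least 20 cells, among 13166 genes. The units share libraries, depth and free RNA, so the coefficients are descriptions. PRSS2 was most like SYCN (0.983), LOC102183207 (0.982) and CEL (0.980), and SERPINI2 most like PDIA2 (0.972), a protein disulfide isomerase gene, PRSS2 (0.967) and CEL (0.966). CTRC was most like LOC102169350 (0.987), LOC102173875 (0.981) and CLPS (0.959), and CELA1 most like PLA2G1B (0.980), ZG16 (0.959) and DNASE1 (0.958). SPINK1 followed the zinc transporter gene SLC39A5 (0.944), the creatine synthesis gene GATM (0.942) and CEL (0.939). CPB1 had the lowest leading values, with CELA1 (0.888), PLA2G1B (0.876) and CTRC (0.876). Within the group the pattern of PRSS2 was close to that of SERPINI2 (0.967) and further from that of CELA1 (0.597).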

How the data were processed

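Pancreas was digested with collagenase IV, dispase and DNase I and loaded for 10x Genomics 3' v3 libraries, per the labels' protocols. The deposited values are UMI counts per gene and barcode in 1 unfiltered matrix of 4 libraries, whose header names Cell Ranger 5.0.1, per the file headers, and the submitters' processing notes name bcl2fastq 5.01, Cell Ranger 3.1.0 and Seurat 3.1.1. The genome build is not given in the sources used here. Of 27137 gene IDs 27103 matched RefSeq assembly ARS1.2, used for names and gene order. The libraries hold 43297855, 82817057, 65937591 and 55223412 UMIs.

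Cells had at least 500 genes and a UMI count over 0.1 of the 99th percentile, taken over the 8000 deepest barcodes per library, and mitochondrial share was not filtered. Scrublet in scanpy 1.11.5 removed 77, 2, 111 and 4 doublets, so doublets remain in libraries 2 and 4. Leiden clustering at resolution 1 used 2000 variable genes, 30 components and 15 neighbours, without batch correction and without the 6 genes and 4 of the lists. LOC genes stayed in, and unnamed enzymes among them can shape acinar-like clusters. Names ending in "-like" needed 3 or more markers that were 2-fold above the average of other clusters and present in 10% of cells, thresholds set after seeing the data, and can differ from the study's annotation.

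Counts were summed by class and library, and log2 ratios of CPM + 1 taken within libraries, a scale that understates changes of low genes. No test between classes was planned, so no p-value is given and the spread between libraries is shown. Members and lists were chosen with earlier results of these data known. Named are the 6 genes, the called list genes of each comparison (the 20 with the highest absolute median log2 ratio where more were called) and the 3 genes most like each member. The list of LOC genes with enzyme descriptions could not be applied, as no descriptions were given, and no sequences were used here. The call rule was also run on simulated counts with the same change planted in every library. Its outcome is not given here, and differences in free RNA or doublets between libraries were not simulated.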

Additional observations from a re-analysis of the deposited data

How the results depend on the processing

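The 6 genes stayed higher in acinar-like than in all other cells under each alternative run, and 5 stayed higher than in ductal-like cells except as named below. Counts of all genes moved most. Under a minimum of 1000 UMIs, 1658 genes were lower in acinar-like cells set against ductal-like cells and 455 higher in ductal-like than in stellate-like cells, and 1 of the 6 genes was higher in endocrine-like than in stellate-like cells. Removing the 5% highest doublet scores gave 4 of the 6 higher in ductal-like than in stellate-like cells. With each library clustered on its own, acinar-like cells were higher than ductal-like cells for 32 genes and 2 of the 6, ductal-like above stellate-like for 5 of the 6 and endocrine-like above stellate-like for 1. A pseudocount of 10 gave 45 genes higher in acinar-like than ductal-like cells, 2605 lower in acinar-like than all other cells, 577 lower in ductal-like than stellate-like cells, and 572 higher and 984 lower in endocrine-like than stellate-like cells. Centring each library on its median gave 444 higher and 393 lower in acinar-like cells set against ductal-like cells, 532 higher and 1118 lower for acinar-like against all other cells, and 4 of the 6 higher in ductal-like than stellate-like cells. A minimum of 5 counts gave 6059 lower in acinar-like cells set against ductal-like cells and 1576 higher for ductal-like against stellate-like cells, and no minimum gave 7225 and 2107, with 120 higher for acinar-like against all other cells. The mean of per-cell CPM gave 1 of the 6 higher in ductal-like than stellate-like cells. In barcodes with 5 to 50 UMIs the 6 genes held 6.21%, 2.58%, 2.96% and 0.388% of UMIs. Leaving out 1 library at a time gave 84 to 207 higher and 2908 to 5542 lower for acinar-like against ductal-like cells, 765 to 1793 higher for ductal-like against stellate-like cells with 2 to 6 of the 6, and 0 to 1 of the 6 higher in endocrine-like than stellate-like cells, with the highest values always without library 1. Library 4 had 11 ductal-like cells and was not used in the comparisons with ductal-like cells, so leaving it out repeated the main run. A call needs the threshold in every library used, so leaving 1 out can only keep or add calls. The causes were not tested beyond fewer or more genes entering where a count minimum changed. No paired analysis was possible because no label ties a library to a replicate number of the animals, and ratios between classes were taken within each library. Ductal-like values rest on 58 to 220 cells a library, and acinar-like values of library 4 on 71.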

Other observations

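The libraries were not given an age, and the values of single libraries in acinar-like cells lay apart for CELA1 more than for any other of the 6 genes: 49921 CPM in library 1 and 37276 CPM in library 4, beside 883 CPM in library 2 and 1291 CPM in library 3. CTRC (38537 and 23717 CPM in libraries 1 and 4, 3550 and 8216 CPM in libraries 2 and 3) and CPB1 (22296 and 12447 CPM, 2100 and 4149 CPM) fell in the same order with smaller gaps, and PRSS2 did not. In the barcodes with 10 to 100 UMIs, CELA1 had 1139 and 1260 UMIs per 1000 PRSS2 UMIs in libraries 1 and 4, and 25.7 and 39.1 in libraries 2 and 3.

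The gene with the most acinar-like UMIs differed between libraries and carried only a LOC number. CLPS, SYCN, PRSS2 and LOC102188098 were among the 10 leading genes in every library. LOC102174148 ranked first in libraries 1 and 4, and LOC102176156 in libraries 2 and 3. PRSS2 ranked 8, 3, 4 and 9 among all genes by UMIs in libraries 1 to 4, and CELA1 ranked 6, 106, 84 and 7. Ranks by UMIs are not scaled for transcript length.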
